A study of Saccharomyces cerevisiae with 4 samples.

Results

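The mitochondrial genome of Saccharomyces cerevisiae was followed through the transcripts that sorted spores carried. The members were all rows of the deposited table whose systematic identifier begins with Q0, which is how genes of the mitochondrial DNA are named, and 31 of the 7132 rows met this rule. They comprise the 15S and 21S ribosomal RNAs, 8 genes for proteins of the respiratory chain, the ATP synthase and the mitochondrial ribosome, the RNA subunit of RNase P (RPM1), the endonuclease I-SceI (SCEI), 6 reading frames in the introns of COX1, 3 in the introns of COB, the maturase-like frame Q0255, and 9 rows that have no entry in the RefSeq annotation of R64, the S288C reference. The 22 annotated rows all lie on the forward strand of the 85779 bp mitochondrial genome.

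The spores came from a diploid of the SK1 background in which the copper-inducible CUP1 promoter drives IME1, the master inducer of meiosis, and in which a cassette at MATa carries hph, for hygromycin resistance, and mCherry under the GPD1 promoter. Copper was added to sporulation medium, and after 7 days the spores were freed by enzymatic digestion and sorted into red spores, with mCherry fluorescence, and non-red spores. The groups were red spores (2 libraries) and non-red spores (2 libraries), 1 of each from a first and from a second round of sporulation and sorting, called experiment 1 and experiment 2 here after the replicate numbers. All 4 libraries share the strain, the induction, the sorting and the 100 ng input of total RNA, and the diploid is a single transformed strain. The study assigned red spores to mating type a and non-red spores to α, while the strain labels give MATalpha for both red libraries and for non-red spores of experiment 2 and MATa for non-red spores of experiment 1. The groups are therefore named by color. The labels name an mRNA library kit, and the design text describes RNA depleted of rRNA.

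Yeast mitochondria keep a small genome whose protein products are core subunits of cytochrome c oxidase (complex IV), the cytochrome bc1 complex (complex III) and the ATP synthase, together with 1 ribosomal protein. It is transcribed by the nuclear-encoded polymerase Rpo41 with its factor Mtf1 from a short promoter motif, as long precursors that are cut at tRNAs and spliced. Mitochondrial mRNAs in yeast carry no long poly(A) tail and end at a conserved dodecamer. Several introns encode maturases that assist splicing or endonucleases that cut DNA lacking the intron. Respiration is required for a diploid to enter sporulation.

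The sequences that mark where these transcripts begin and end are shown because the abundance of a row depends on its transcription unit and on how its RNA ends. They are RefSeq sequences of R64, forward strand, 5′ to 3′. Capitals mark the promoter motif ATATAAGTA in the first 4, the last 15 bases of the first exon in the spliced 21S rRNA, where I-SceI cuts DNA that lacks the intron, and the dodecamer AATAATATTCTT in the last 4.
15S rRNA promoter (MT:6452-6481): atttattattATATAAGTAataaataatag
21S rRNA promoter (MT:57990-58019): attattatatATATAAGTAgtaaaaagtag
COX1 promoter (MT:13339-13368): ataagtattgATATAAGTAatagatataat
OLI1 promoter (MT:46139-46168): atacacatttATATAAGTAtatatatatat
21S rRNA exon junction (MT, 60710 to 61882, intron removed): GTTACGCTAGGGATAacagggtaatatagc
COX1 dodecamer (MT:26761-26790): taatataatAATAATATTCTTataaaaata
COX2 dodecamer (MT:74567-74596): aataattatAATAATATTCTTaaatataat
COX3 dodecamer (MT:80114-80143): tattattatAATAATATTCTTacaaatata
VAR1 dodecamer (MT:50668-50697): aataaataaAATAATATTCTTaatttttat

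The promoter motif ATATAAGTA was searched on both strands and occurred 11 times on the forward and 3 times on the reverse strand of the mitochondrial genome. It stood on the forward strand within the 1000 bases before 5 of 14 distinct annotated start positions (35.7%), compared with 9.41% of the 85 consecutive windows of that length in the mitochondrial genome and 1.17% of nuclear windows. These 5 were the starts of 21S rRNA, where the motif adjoins the first base, 15S rRNA (75 bases between), RPM1 (272), COX1 with the intron frames that share its start (460) and OLI1 (565). The nearest motif before COB was 1653 bases away and that before VAR1 was 2743. The dodecamer AATAATATTCTT was picked as a 12-base word found within 1000 bases after the most of the 8 protein-coding genes. Among words tied at that number, it was the rarest on the forward strand. It occurred 9 times on the forward and 2 times on the reverse strand, in 10.6% of the same windows. It stood after 6 of the 8 genes, at 62 bases for COX2, 68 for COX1, 86 for ATP6, 97 for COB, 100 for COX3 and 579 for VAR1. Both the 6 of 8 and the 10.6% follow from how the word was picked and test nothing. It was not in that window after ATP8 or OLI1. A match of letters is a description of the reference, and the spores are of another strain.

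Library totals lay between 25493760 and 45697828 estimated reads, and 3 reads, the floor for calling a row detected, corresponded to between 0.0656 and 0.118 CPM, the reads scaled to a common library total. Floors and intervals cover counting error only. Red libraries held 14452 mCherry reads in experiment 2 and 7814 in experiment 1, and non-red libraries held 0 in experiment 2 and 552 in experiment 1. Reads of hph, from the same cassette, numbered 67902 in experiment 2 and 71566 in experiment 1 in red libraries, and 972 in experiment 2 and 4348 in experiment 1 in non-red libraries, so neither non-red library was free of cassette transcripts. Of 10 late sporulation genes listed as spore markers, 9 or 10 were detected in each library, with summed levels of 2320 to 3480 CPM, of which SPS100 alone held 92.8 to 94.0%, and median levels of 6.43 to 17.4 CPM per kb. Of 10 genes of dividing cells, 9 or 10 were detected as well, with summed levels of 485 to 581 CPM and median levels of 11.5 to 18.8 CPM per kb, and their part in the values below was not tested. Between experiments edgeR's quasi-likelihood test called 1 of the 10 spore markers, SPS22 (higher in experiment 2), and 0 of the 10 dividing-cell genes. In that test each list had 2 genes at an unadjusted p under 0.05. The likelihood ratio test called 2 spore markers and 1 dividing-cell gene, all higher in experiment 2. DESeq2 called 3 spore markers higher and 1 lower, and 1 dividing-cell gene higher and 2 lower. Of all 6140 rows tested, these tests called 1156, 1604 and 2706. In bulk RNA, fewer mitochondria, fewer genome copies and less RNA per copy cannot be told apart.

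The Q0 rows, which leave out the mitochondrial tRNAs, were a very small part of every library. Their share was lower in experiment 2 than in experiment 1 in both colors. In red spores the 31 rows took 0.00666% of all reads in experiment 2 (1829 reads, exact 95% interval 0.00636 to 0.00697%) and 0.0646% in experiment 1 (0.0638 to 0.0654%). In non-red spores they took 0.00275% in experiment 2 (702 reads, 0.00255 to 0.00297%) and 0.0715% in experiment 1 (0.0707 to 0.0723%). This is 1 read in 15018 in experiment 2 and 1 in 1548 in experiment 1 for red spores, and 1 in 36316 in experiment 2 and 1 in 1399 in experiment 1 for non-red spores. The share was 9.7-fold lower in experiment 2 in red spores and 26.0-fold lower in non-red spores. Across colors it averaged 0.00471% ± 0.00276 in experiment 2 and 0.068% ± 0.00487 in experiment 1 (SD, n = 2 each), a log2 ratio of −3.85. An exact two-sided permutation test gave p = 0.333, the smallest value that 2 libraries against 2 allow.

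**Figure D1:**
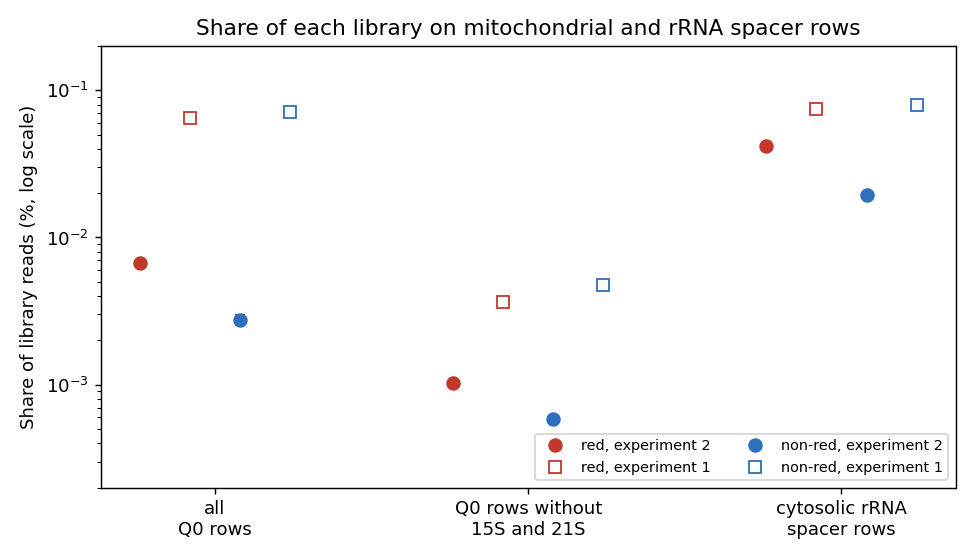
Share of library reads in percent on a log scale for all Q0 rows, for Q0 rows without the 2 ribosomal RNAs, and for spacer rows of cytosolic rRNA, with 1 point per library (red spores left, non-red spores right, experiment 2 left of experiment 1). Bars on the first group are exact 95% binomial intervals, mostly smaller than the points. The 2 libraries of experiment 2 lie below the 2 of experiment 1 in each group.

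Red and non-red spores did not separate. The share averaged 0.0356% ± 0.041 in red spores and 0.0371% ± 0.0486 in non-red spores (SD, n = 2 each), and the exact permutation p was 1. Within experiments the order turned around. Red spores had 2.42 times the share of non-red spores in experiment 2, and 0.904 times in experiment 1. With 1 library per color and experiment, that change of order was not tested.

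Most of the mitochondrial reads were ribosomal. Of the reads on Q0 rows, the 2 rRNAs held 84.6% in experiment 2 and 94.3% in experiment 1 in red spores, and 78.6% in experiment 2 and 93.3% in experiment 1 in non-red spores. The 21S rRNA held 82.8% in experiment 2 and 78.5% in experiment 1 in red spores, and 54.7% in experiment 2 and 74.1% in experiment 1 in non-red spores. The 15S rRNA held 1.86% in experiment 2 and 15.9% in experiment 1 in red spores, and 23.9% in experiment 2 and 19.2% in experiment 1 in non-red spores. These 2 rRNAs were the only Q0 rows detected in all 4 libraries.

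The 21S rRNA (Q0158, MT:58009-62447, 2 exons of 3296 bp in all) is the RNA of the large subunit of the mitochondrial ribosome. It had 1514 reads in experiment 2 and 18213.5 in experiment 1 in red spores, and 384 in experiment 2 and 24194.12 in experiment 1 in non-red spores. Both libraries of experiment 2 lay below both of experiment 1. In CPM these are 55.1 in experiment 2 against 507 in experiment 1 in red spores, and 15.1 against 529 in non-red spores, 9.19-fold lower in experiment 2 in red spores and 35.1-fold lower in non-red spores. Among the 7132 rows it stood at rank 4023 in experiment 2 and 275 in experiment 1 in red spores, and at rank 5321 in experiment 2 and 271 in experiment 1 in non-red spores. The ratio of red over non-red spores was 3.66 in experiment 2 and 0.957 in experiment 1.

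The 15S rRNA (Q0020, MT:6546-8194, 1 exon of 1649 bp) belongs to the small subunit. It had 34 reads in experiment 2 and 3685 in experiment 1 in red spores, and 168 in experiment 2 and 6284 in experiment 1 in non-red spores. Experiment 2 was again below experiment 1 in both colors, at 1.24 against 103 CPM in red spores and 6.59 against 138 CPM in non-red spores, which is 82.8-fold lower in red and 20.9-fold lower in non-red spores. Here red spores were the lower of the 2 colors in both experiments, by 5.32-fold in experiment 2 and 1.34-fold in experiment 1.

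The 2 rRNAs, which are made in separate transcription units but work as parts of 1 ribosome, therefore did not keep a fixed ratio. Per kb of exon, 21S rRNA had 22.3 times the reads of 15S rRNA in experiment 2 and 2.47 times in experiment 1 in red spores, and 1.14 times in experiment 2 and 1.93 times in experiment 1 in non-red spores. Red spores of experiment 2, with only 34 reads on 15S rRNA, stood apart from the other 3 libraries.

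In edgeR's quasi-likelihood test, 21S rRNA fell in experiment 2 by 4.2 on the log2 scale (SE 0.465, adjusted p = 0.000596) and 15S rRNA fell by 5.37 (SE 0.607, adjusted p = 0.000655), with Benjamini-Hochberg adjustment over all 6140 rows tested. Of the 31 Q0 rows, 9 passed the filter on low counts and 2 of them passed the test, both lower in experiment 2. Among the 9, AI1, OLI1, SCEI and COX3 had 0 reads in both libraries of experiment 2, so they passed the filter only through experiment 1. Among all rows, 1156 passed (18.8%), and 606 were lower in experiment 2 (9.87%), with a median log2 fold change of −0.02. Within colors, the log2 ratio for 21S rRNA was −3.2 in red and −5.14 in non-red spores (SD 1.37). For 15S rRNA it was −6.37 in red and −4.38 in non-red spores (SD 1.41). The SEs and adjusted p-values draw on variance shared across genes, so they do not reflect the agreement of these ratios alone. Leaving out any 1 library kept both rRNAs lower, with log2 fold changes of −5.15 to −3.29 for 21S rRNA and −6.66 to −4.23 for 15S rRNA. Nothing in the labels separates 2 cultures, 2 sorts and 2 library preparations, so these cannot be told apart as sources of the difference.

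The rows for the transcribed spacers of the nuclear rDNA, which are cut from the precursor of cytosolic rRNA in the nucleolus, were also lower in experiment 2 in sum. They summed to 415 CPM in experiment 2 and 747 CPM in experiment 1 in red spores, and to 194 CPM in experiment 2 and 789 CPM in experiment 1 in non-red spores. They were 1.8-fold lower in experiment 2 in red spores and 4.07-fold lower in non-red spores, less than either mitochondrial rRNA. Of the 8 spacer rows, which are near-identical copies in pairs that can share reads, 4 fell in edgeR's quasi-likelihood test (ETS1 and ITS1, log2 fold changes of −1.95 to −1.85, adjusted p from 0.0088 to 0.0288), 1 rose (ETS2-2, 2.57, adjusted p = 0.0166) and 3 were not called. Within experiment 2, red spores lay above non-red spores for the spacers, for 21S rRNA and for the whole share. The other mitochondrial rRNA went the opposite way, 5.32-fold lower in red than in non-red spores of experiment 2. The part of rRNA removal in the mitochondrial difference was not tested. The Q0 rows other than the rRNAs summed to 10.2 CPM in experiment 2 and 36.6 in experiment 1 in red spores, and to 5.88 CPM in experiment 2 and 47.9 in experiment 1 in non-red spores, 3.58-fold lower in red and 8.14-fold lower in non-red spores.

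Between red and non-red spores no Q0 row passed the edgeR quasi-likelihood test. In that edgeR test 15S rRNA had a log2 fold change of −1.38 (SE 0.532, adjusted p = 1) and 21S rRNA of 0.85 (SE 0.422, adjusted p = 1), and 1 of the 9 rows tested, 15S rRNA, had an unadjusted p under 0.05. edgeR's likelihood ratio test and DESeq2 also called 0 of the 9, with 2 and 1 at an unadjusted p under 0.05. Among all 6140 rows, 1 passed the quasi-likelihood test (0.0163%), 1 the likelihood ratio test and 222 DESeq2. Within experiments, the log2 ratio of red over non-red spores was −2.41 in experiment 2 and −0.42 in experiment 1 for 15S rRNA, the same direction in both, and 1.87 in experiment 2 and −0.063 in experiment 1 for 21S rRNA. A fit without 1 library has no experiment term, so that its color value also carries the difference between experiments. Such fits gave a 15S value of 0.46 without red spores of experiment 2 and 2.99 without non-red spores of experiment 1, and a 21S value of −2.42 without red spores of experiment 1 and −0.97 without non-red spores of experiment 2.

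Of 124 values on the 31 rows in 4 libraries, 91 were 0. Of the 33 values above 0, only 4 were under 10. With at least 3 reads taken as detection, 15 rows were detected in some library. By library these were 7 rows in red spores of experiment 2 and 9 in red spores of experiment 1, and 3 in non-red spores of experiment 2 and 12 in non-red spores of experiment 1. Both libraries of experiment 2 shared only the 2 rRNAs, and both of experiment 1 shared 8 detected rows. Of all 7132 rows, 6177 had any reads in experiment 2 and 6263 in experiment 1 in red spores. In non-red spores these were 6096 in experiment 2 and 6225 in experiment 1. The 2 libraries of experiment 2 were also the shallower ones, with floors of 0.109 and 0.118 CPM in red and non-red spores against 0.0835 and 0.0656 CPM in experiment 1.

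**Figure D2:**
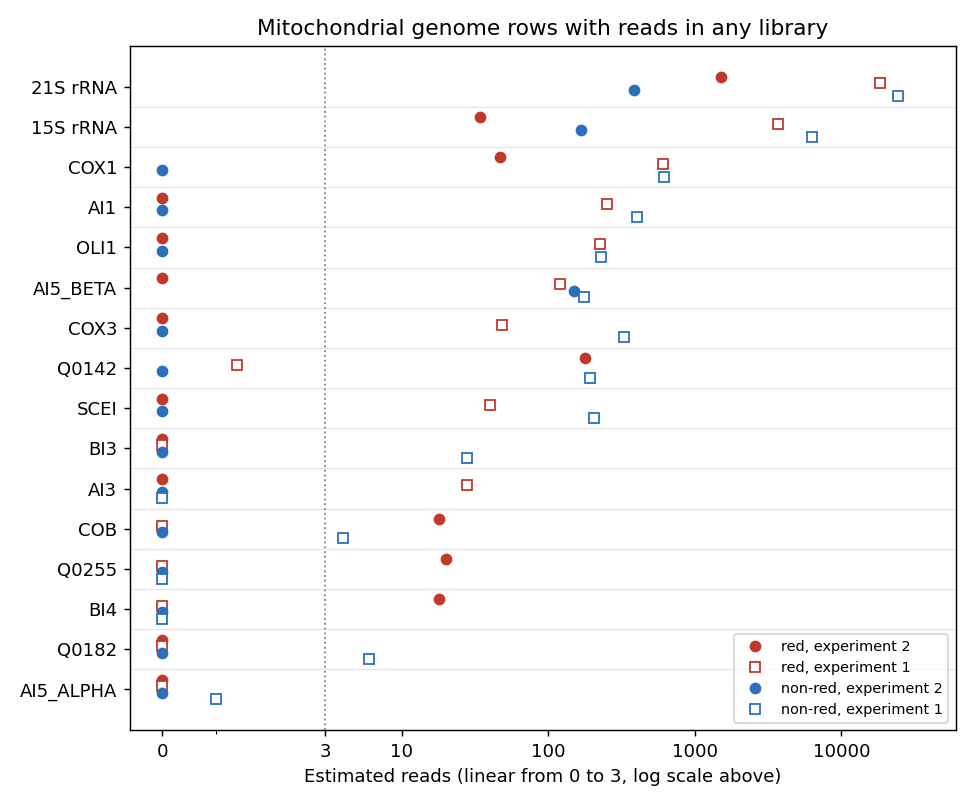
Estimated reads of the 16 Q0 rows with any read, ordered by their mean, with 1 symbol per library (red spores above non-red spores, experiment 2 above experiment 1). The axis is linear from 0 to 3 and logarithmic above, and the dotted line marks the floor of 3 reads. Only 21S and 15S rRNA have reads in all 4 libraries, and most filled circles of experiment 2 lie at 0.

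Among protein-coding genes, COX1 (Q0045, MT:13818-26701, 8 exons of 1605 bp in all) was the most abundant by reads. It encodes the catalytic core subunit of cytochrome c oxidase. It had 47 reads in experiment 2 and 603 in experiment 1 in red spores, and 0 in experiment 2 and 618.99 in experiment 1 in non-red spores. Red and non-red spores of experiment 1 were near each other, and both libraries of experiment 2 lay below them. The level was 9.81-fold lower in experiment 2 in red spores and at least 115-fold lower in non-red spores, where the bound sets the library at 0 to the floor of 3 reads. Such bounds, here and below, cover counting error only. Rows also differed as widely within experiment 2, as AI5_BETA with 0 reads in red and 150 in non-red spores. COX1 did not pass the edgeR quasi-likelihood test between experiments (adjusted p = 0.222).

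OLI1 (Q0130, MT:46723-46953, 1 exon of 231 bp), also called ATP9, encodes the ring subunit of the ATP synthase. It had 0 reads in experiment 2 and 225 in experiment 1 in red spores, and 0 in experiment 2 and 228 in experiment 1 in non-red spores. The groups of experiments did not overlap, and the level was at least 57.3-fold lower in experiment 2 in red spores and at least 42.4-fold lower in non-red spores. The edgeR quasi-likelihood test gave an adjusted p of 0.228. In experiment 1 its level was 27.1 CPM per kb in red spores and 21.6 in non-red spores. COX1, over the 633 bp that no other annotated gene shares, had 26.5 CPM per kb in red spores and 21.4 in non-red spores. Over its whole exon length it had 10.5 CPM per kb in red spores and 8.44 in non-red spores. Which of these lengths applies depends on how reads on shared bases were counted, which is not stated.

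COX3 (Q0275, MT:79213-80022, 810 bp), another core subunit of cytochrome c oxidase, had 0 reads in experiment 2 and 48 in experiment 1 in red spores, and 0 in experiment 2 and 330 in experiment 1 in non-red spores. It was thus also seen only in experiment 1, with 5.41-fold more CPM in non-red than in red spores there. It was at least 12.2-fold lower in experiment 2 in red spores and at least 61.4-fold lower in non-red spores, with an adjusted p of 0.302 in the edgeR quasi-likelihood test. COB (Q0105, MT:36540-43647, 6 exons of 1158 bp in all), which encodes cytochrome b, had 18 reads in experiment 2 and 0 in experiment 1 in red spores, and 0 in experiment 2 and 4 in experiment 1 in non-red spores. It had reads in 1 library of each experiment and followed neither color nor experiment.

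The other 4 protein-coding genes were listed at 0 in all 4 libraries. These were COX2 (Q0250), a copper-binding subunit of cytochrome c oxidase, ATP6 (Q0085) and ATP8 (Q0080), membrane subunits of the ATP synthase, and VAR1 (Q0140), a protein of the small mitochondrial ribosomal subunit. A count of 0 allows up to 3 reads, or 0.0656 to 0.118 CPM by library, again for counting error only. ATP6, ATP8 and VAR1 share no exon base with another annotated gene, and COX2 shares 2.51% of its bases, with Q0255. ATP8 and ATP6 lie downstream of COX1 in the same transcription unit, and VAR1 downstream of OLI1, so genes with reads in experiment 1 and genes at 0 came from the same units. RPM1 (Q0285), the RNA of the RNase P that trims mitochondrial tRNAs, shares no base with another gene and was also listed at 0 throughout, although it has a promoter motif 272 bases before it.

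The intron frames share exons with their host. In the annotation the frames AI1, AI2, AI3, AI4 and AI5_ALPHA begin at the COX1 start codon and run through COX1 exons into an intron, and 60.6% of the exon bases of COX1 belong to at least 1 of them as well. How the counting treated reads on shared bases is not stated, so zeros of these rows may follow from the counting. AI1 (Q0050), a reverse transcriptase with maturase activity, has 2336 of its 2505 bp to itself. It had 0 reads in experiment 2 and 250 in experiment 1 in red spores, and 0 in experiment 2 and 404 in experiment 1 in non-red spores. It was at least 63.7-fold lower in experiment 2 in red spores and at least 75.1-fold lower in non-red spores, with an unadjusted p of 0.0461 and an adjusted p of 0.152 in the edgeR quasi-likelihood test. AI2 (Q0055), its close relative in the next intron, has 2360 of 2565 bp to itself and was at 0 in all 4 libraries.

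The remaining frames of COX1 had few reads. AI3 (Q0060), an intron endonuclease, had 28 reads in red spores of experiment 1 and 0 elsewhere. AI4 (Q0065) was at 0 throughout, and AI5_ALPHA (Q0070) had 1 read, in non-red spores of experiment 1. AI5_BETA (Q0075), which lies wholly within an intron and shares no exon base, had 0 reads in experiment 2 and 120 in experiment 1 in red spores, and 150 in experiment 2 and 174 in experiment 1 in non-red spores. In non-red spores it was therefore 1.55-fold higher in CPM in experiment 2 than in experiment 1, while COX1 had 0 and 618.99 reads in the same libraries. Its adjusted p between experiments was 0.761 in the edgeR quasi-likelihood test.

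**Figure D3:**
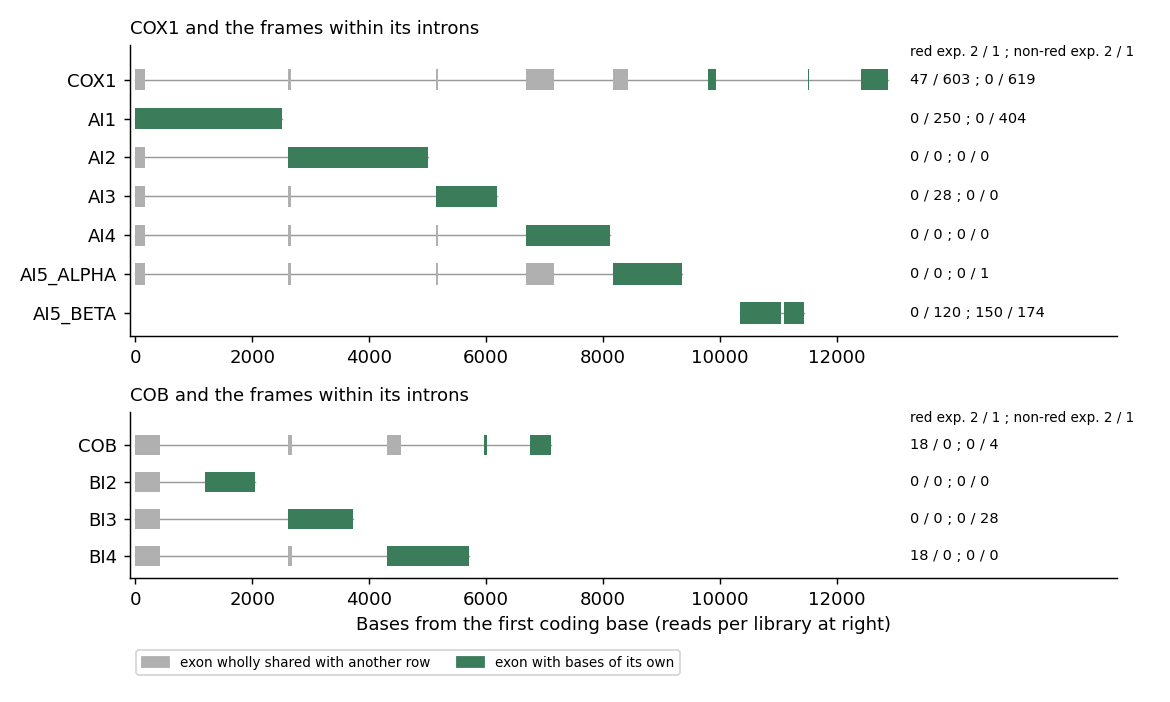
Annotated exons of COX1 and COB and of the frames in their introns, in bases from the first coding base of the host gene, with the reads of each row at the right (red spores in experiment 2 and 1, then non-red spores in experiment 2 and 1). Gray exons are wholly shared with another row and green exons have bases of their own. AI2 and AI4 are at 0 in all libraries although each has a long green stretch.

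In COB the frames BI2, BI3 and BI4 encode maturases for its introns. BI2 (Q0110) was at 0 in all 4 libraries, BI3 (Q0115) had 28 reads in non-red spores of experiment 1, and BI4 (Q0120) had 18 reads in red spores of experiment 2, the library in which COB also had 18. Of the 50-base words of BI4, 10.3% occur elsewhere in the reference. SCEI (Q0160, MT:61022-61729), the endonuclease in the omega intron of the 21S rRNA gene, had 0 reads in experiment 2 and 40 in experiment 1 in red spores, and 0 in experiment 2 and 203.5 in experiment 1 in non-red spores. It was detected where 21S rRNA was highest, and was at least 10.2-fold lower in experiment 2 in red spores and at least 37.8-fold lower in non-red spores (adjusted p = 0.413, edgeR quasi-likelihood test). In experiment 1 it had 1.57 CPM per kb in red spores and 6.29 in non-red spores, and the exons of 21S rRNA had 154 and 161.

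The other rows were mostly empty. Q0255 had 20 reads in red spores of experiment 2 and 0 in the other 3 libraries. Of the 9 rows outside the annotation, 7 were at 0 in all 4 libraries and Q0182 had 6 reads in non-red spores of experiment 1. Q0142, singled out after its values were seen, had 178 reads in experiment 2 and 1.38 in experiment 1 in red spores, and 0 in experiment 2 and 192 in experiment 1 in non-red spores. Its values followed neither color nor experiment, and its adjusted p between experiments was 0.999 in the edgeR quasi-likelihood test.

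Rows with reads and rows without were found both with and without overlap. Of the 10 annotated rows with no shared exon base, 6 were detected and 4 were at 0 in all libraries. Of the 12 with shared bases, 7 were detected and 4 were at 0 in all libraries, and AI5_ALPHA had its single read. The median GC content was 21.6% in the 13 detected annotated rows and 21.9% in the 8 at 0, in a range from 10.4% in VAR1 to 33.3% in OLI1. The longest run of A in the exons had a median of 7 bases in detected rows and 6 in rows at 0, and the exons had a median length of 1419 bp and 988.5 bp. These are descriptions with no test.

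Nuclear genes for subunits of the same complexes were abundant in all 4 libraries. The 9 nuclear genes of complex IV had median levels of 634 CPM per kb in experiment 2 and 389 in experiment 1 in red spores, and 722 in experiment 2 and 278 in experiment 1 in non-red spores. Of these 9, 2 rose in experiment 2, where 8.96% of all rows tested were called higher and 18.8% were called in either direction. They were COX7 (log2 fold change 1.90, SE 0.357, adjusted p = 0.0073) and COX12 (1.04, SE 0.301, adjusted p = 0.0446), both small subunits. None fell. DESeq2 called 5 of the 9 higher and none lower, beside 1321 higher and 1385 lower of all 6140 rows. The median over the 9 was 0.52 on the log2 scale, with −0.02 over all rows tested. The mitochondrially encoded subunits of the same complex, COX1, COX2 and COX3, reached at most 26.5 CPM per kb of unshared exon in any library, COX1 in red spores of experiment 1. Mitochondrial mRNAs carry no long poly(A) tail, and whether the libraries captured them as well as nuclear mRNAs was not tested. Levels of the 2 kinds are therefore levels in the libraries, not in the spores.

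Complex III had 2 of 9 nuclear genes higher in experiment 2, QCR8 (log2 fold change 1.21, SE 0.22, adjusted p = 0.00609) and QCR10 (1.24, SE 0.271, adjusted p = 0.0141), none lower, and a median of 0.23, while DESeq2 called 2 higher and 2 lower. The 14 nuclear genes listed for the ATP synthase include that of its inhibitor protein. None of the 14 was higher and 2 were lower, ATP2 (−1.20, SE 0.271, adjusted p = 0.016), the catalytic beta subunit, and ATP17 (−1.23, SE 0.287, adjusted p = 0.0183), a subunit of the membrane sector. The median over the 14 was −0.38, while DESeq2 called 2 higher and 5 lower. Of all rows tested, 8.96% were called higher and 9.87% lower in edgeR's quasi-likelihood test, and DESeq2 called 1321 higher and 1385 lower of 6140. With 2 calls in each of these lists, nothing is read from the counts about the lists. The lowest nuclear gene of the ATP synthase had 97.1 CPM per kb, in non-red spores of experiment 1, above every mitochondrially encoded mRNA in every library. The part of unequal capture of nuclear and mitochondrial mRNAs in this difference was not tested. The p-values here are from the edgeR quasi-likelihood test.

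**Figure D4:**
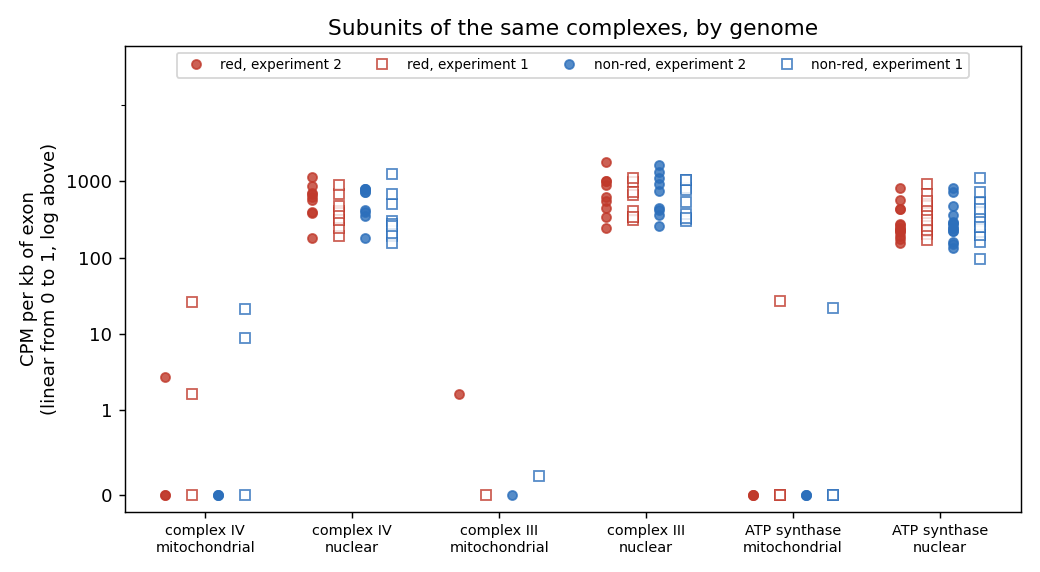
CPM per kb (linear from 0 to 1, logarithmic above) of the mitochondrially and nuclear-encoded subunits of complex IV, complex III and the ATP synthase, with 1 symbol per gene and library (red spores left of non-red spores, experiment 2 left of experiment 1). For mitochondrial genes only bases that no other annotated gene shares are counted in the length. Nuclear subunits lie between 97.1 and 1780 in all libraries, and mitochondrial ones at or below 27.1. The nuclear genes shown for the ATP synthase include that of its inhibitor protein. Whether the libraries captured both kinds of mRNA alike was not tested.

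The nuclear factors that make, process and translate these transcripts were also detected. Of 20 genes for mitochondrial transcription and RNA processing, all were detected in each library. Of these, 1 rose in experiment 2 and 2 fell, where 18.8% of all rows were called in either direction. The one that rose was ABF2 (log2 fold change 1.0, SE 0.229, adjusted p = 0.0171), the protein that packages mitochondrial DNA. Those that fell were CBT1 (−1.92, SE 0.53, adjusted p = 0.0368), which acts in end processing of COB mRNA, and NUC1 (−1.54, SE 0.428, adjusted p = 0.0377), the main mitochondrial nuclease. The median was 0.12 over the 20. Of 17 translational activators 1 rose, PET54 (1.54, SE 0.393, adjusted p = 0.0281), needed for translation of COX3 mRNA and for splicing of COX1, none fell, and the median was 0.28. DESeq2 called 4 higher and 2 lower of the 20, and 4 higher and 1 lower of the 17, beside 1321 higher and 1385 lower of all 6140 rows. Nothing is read from these counts about the 2 lists. No gene of these 5 lists passed the edgeR quasi-likelihood test between red and non-red spores, where 1 gene, in complex III, had an unadjusted p under 0.05. Over the 69 genes, edgeR's likelihood ratio test called 0 as well and DESeq2 called 2, beside 1 and 222 of all 6140 rows.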

How the data were processed

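RNA from sorted red and non-red spores was measured in 4 paired-end libraries. The authors aligned reads with STAR 2.7.3a to R64, with mCherry and hph added, and counted them per gene with FeatureCounts from Subread. The deposited values are estimated counts, not normalized, of which 61.7% to 69.3% of the non-zero ones per library are fractional. The design had allowed for whole counts, and values were rounded for count models. How strand, overlapping genes and reads with several matches were treated is not given in the sources used here. SK1 reads were aligned to S288C, and no read was analysed here.

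Libraries were grouped by color and replicate number. The members and gene lists were chosen with earlier results of these data known. All Q0 rows were accounted for. Values per library were given for the 8 proteins, both rRNAs, RPM1, SCEI, the intron frames and any other row with a mean of at least 100 reads, and nuclear genes were named where they passed the test within a list, at most 5 a list. Q0142, Q0182 and Q0255 were named after their values were seen. All rows were tested in R 4.3.3 with edgeR 4.0.16 (filterByExpr, TMM, quasi-likelihood test, Benjamini-Hochberg threshold 0.05) on color and replicate number. The study states a generalized linear model that accounts for batch, and the quasi-likelihood test was used because few degrees of freedom remain. Libraries of 1 experiment deviated together from their color means (r = 0.373 over 6140 genes, across genes, which are not independent), and the pairing comes from the replicate numbers and the repeated sporulation and sorting that the study describes. SE is the log2 fold change divided by the root of F. The p-values and SEs rest on a spread between these libraries that is estimated with information shared across genes. They do not measure how well the libraries agree for a single gene. Alternatives were the likelihood ratio test, DESeq2 1.42.0, other scalings and filters, no block, other denominators of the share and leaving out each library.

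Locus tags of the RefSeq annotation of R64 matched 6047 of the 7132 rows and 22 of the 31 Q0 rows. Shares, exact binomial intervals and permutation tests were computed with Python 3.11.15, numpy 2.4.6, pandas 2.3.3 and scipy 1.17.1, and figures with matplotlib 3.10.9. Own bases of a row are exon bases that no other annotated gene covers.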

Additional observations from a re-analysis of the deposited data

Results flagged for a closer look

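Red and non-red spores stood in opposite order in the 2 experiments for the share of reads on the mitochondrial genome. The log2 ratio of red over non-red spores was 1.27 in experiment 2 and −0.15 in experiment 1.

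The same held for 21S rRNA, with a log2 ratio of red over non-red spores of 1.87 in experiment 2 and −0.063 in experiment 1. With 1 library per color and experiment, neither difference between experiments was tested, and 21S rRNA makes up most of the share, so these are not separate cases.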

How the results depend on the processing

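Between experiments, 21S and 15S rRNA stayed lower in experiment 2 and past the edgeR or DESeq2 threshold in all 11 alternatives (adjusted p from 2.58e-16 to 0.00332 and from 8.39e-26 to 0.0135). The log2 ratio of the share stayed negative in all 7, from −4.63 to −3.35 with 1 library left out and −2.39 without the 2 rRNAs. The Q0 rows called numbered 2, and 6 in edgeR's likelihood ratio test (both rRNAs, AI1, OLI1, SCEI and COX3) as in DESeq2 (both rRNAs, COX1, AI1, OLI1 and COX3). AI1, OLI1, SCEI and COX3 had 0 reads in both libraries of experiment 2 and passed the filter only through experiment 1. Their calls are therefore no separate support for lower levels in experiment 2. The likelihood ratio test called 1604 of all 6140 rows. All rows called numbered 1156, 2706 in DESeq2 and 623 to 1340 with 1 library left out, the lowest without non-red spores of experiment 1. The 5 nuclear lists held 10 calls, 14 in the likelihood ratio test and 27 in DESeq2. A filter of at least 10 counts in every library left 15S and 21S rRNA as the only Q0 rows tested. Detected rows numbered 16 at a floor of 1 read and 14 at 10.

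Between colors, 1 row of the table was called, 0 without the replicate block, 222 in DESeq2 and 0 to 9 with 1 library left out. No alternative called a Q0 row. With 1 library left out, log2 values ran from −5.98 to 2.99 for 15S rRNA, from −2.42 to 4.23 for 21S rRNA and from −2.48 to 3.69 for the share. Without the replicate block the 21S value was −0.0093. Leaving out a library left 3 libraries and 1 term in the model, so that color values then also carry the difference between experiments, and a group with 1 library was assumed to vary like the other. Other causes of these changes were not tested. At this depth 91 of the 124 Q0 values are 0, and differences between such values are not resolved.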

Other observations

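The tRNA genes of the mitochondrial genome carry identifiers ending in Q and were outside the rule. Of 24 such rows, 4 were detected in any library. Together the 24 rows held 204 reads in experiment 2 and 53 in experiment 1 in red spores, and 0 in experiment 2 and 302 in experiment 1 in non-red spores. In red spores this order of experiments was opposite to that of the Q0 rows. The methionine row tM(CAU)Q2 had 94 reads in red spores of experiment 2 and 144 in non-red spores of experiment 1, and 0 in the other 2 libraries. The arginine row tR(UCU)Q1 had 138 reads in non-red spores of experiment 1 and 0 elsewhere. The serine row tS(UGA)Q2 had 90 reads in experiment 2 and 38 in experiment 1 in red spores and 0 in both non-red libraries. The glutamate row tE(UUC)Q had 20 reads in experiment 2 and 15 in experiment 1 in red spores, and 0 in experiment 2 and 20 in experiment 1 in non-red spores. These rows were named after their values were seen.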
